A study of Mus musculus with 4 samples.

Results

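The genes described here are 36 axon guidance genes of the ephrin, Slit-Robo and netrin families, and the measurement is the methylation of their cytosines in brain DNA. The members are the A-type ephrins Efna1 to Efna5, the B-type ephrins Efnb1 to Efnb3, 9 EphA and 5 EphB receptors, Slit1 to Slit3, Robo1 to Robo4, the netrins Ntn1 and Ntn4, and the netrin receptors Dcc and Unc5a to Unc5d. They were chosen by name, as families of guidance ligands and receptors. A hippocampus CpG site belonged to a member if it lay between 1 kb before the transcription start site (TSS) and the gene end in RefSeq (GRCm38.p6, the mm10 build) and had at least 5 reads in both libraries, which held for 7826 of 2226271 sites. In the frontal cortex, 24 of 9731 listed CpGs named a member as promoter, exon or intron.

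Estriol (E3) is an estrogen made in large amounts by the fetus and placenta in human pregnancy. Pregnant CD-1 mice had received E3 dissolved in DMSO or the DMSO vehicle alone (CT) from a mini-osmotic pump, from gestation day 9 for 7 days. The DNA came from their wild type female offspring, with an age of 8 weeks in the labels, so E3 and CT shared strain, sex, solvent and pump. There were 4 libraries, 1 each for frontal cortex E3, frontal cortex CT, hippocampus E3 and hippocampus CT, and neither the labels nor the methods say how many mice went into a library. With no replicates, every test below compares 2 libraries and not the conditions.

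Ephrins are ligands fixed to the cell surface, by a lipid anchor in the A-type and by a membrane-spanning segment in the B-type, and they bind Eph receptor tyrosine kinases on the neighbouring cell. Slits are secreted proteins that repel growing axons through Robo receptors, most familiarly at the midline of the nervous system. Netrins attract axons through Dcc and repel them when an Unc5 receptor takes part. In the hippocampus, ephrins and Eph receptors are also known for their roles at dendritic spines. Methylation was read at CpG dinucleotides, where a promoter rich in CpGs is usually unmethylated and the body of an active gene is usually methylated.

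Member sites had a median of 27 reads in hippocampus E3 and 9 in hippocampus CT, and 51.6% of them had fewer than 10 reads in CT. All CpG sites had the same medians, 27 and 9. The mean level over member sites was 49.0% in E3 and 49.2% in CT, and the median site difference was 0. At 1799 member CpGs both strands were read. Of these, 29 were called in the same direction on both strands, 18 were called in opposite directions on the 2 strands, and 331 were called on 1 strand only. Calls that oppose each other within a CpG are a measured limit on every single site below.

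A site was called if the libraries differed by at least 10 percentage points with an unadjusted p under 0.05 in a 2-sided Fisher's exact test, the rule of the study's methods. Among the 7826 member sites, 491 were called higher in E3 and 408 lower. That was 6.27% and 5.21% of member sites, against 6.19% and 4.83% of all measured sites. In both directions together 11.5% of member sites were called, against 11.0% of all sites, so the guidance genes as a whole stood near the background. At least 1 site was called in 35 of the 36 genes, and 32 genes had calls in both directions. Only Efna1, an A-type ephrin with 75 measured sites, had no called site.

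**Figure D1:**
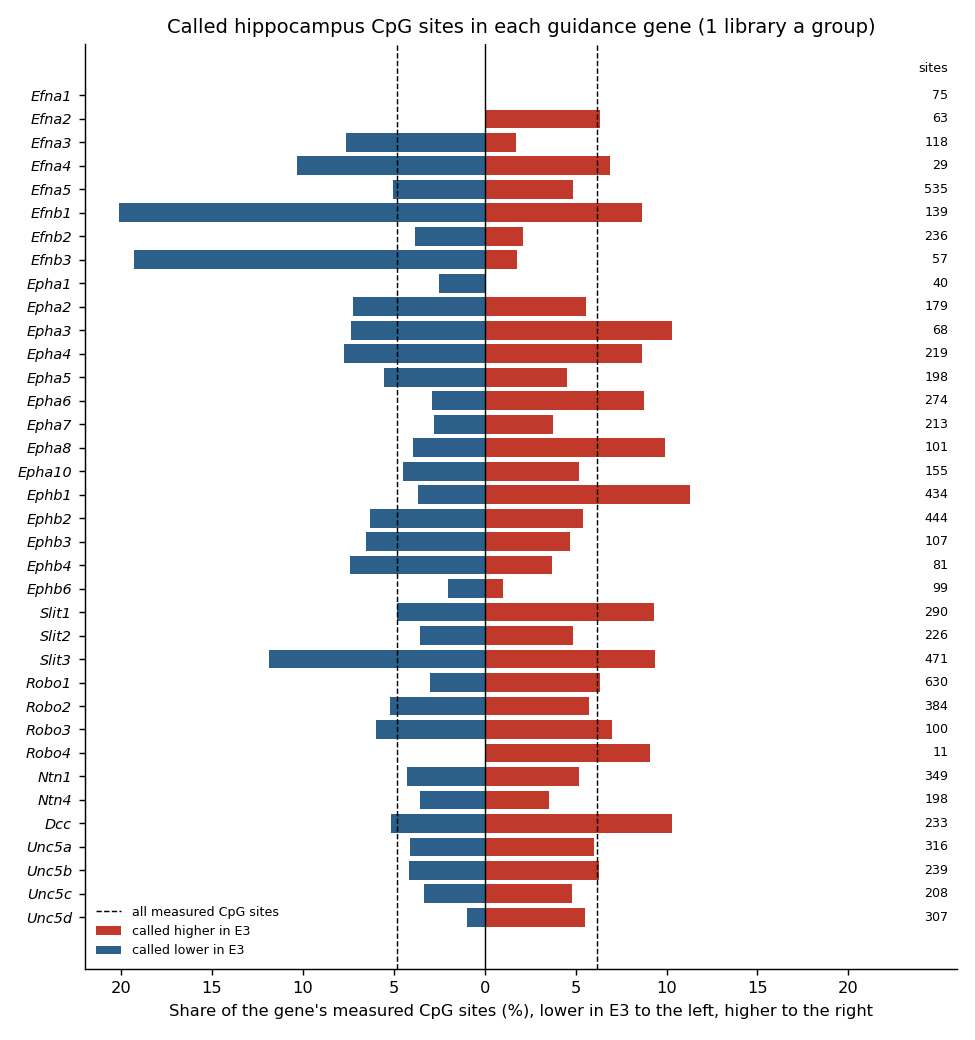
Share of each gene's measured hippocampus CpG sites that was called lower (bars to the left) or higher (bars to the right) in E3, with the number of measured sites at the right edge and the shares over all measured sites as dashed lines. Efnb1 and Efnb3 reach farthest to the left, with 28 of 139 and 11 of 57 sites called lower, and Ephb1 has 49 of 434 sites called higher.

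The families differed in how their calls fell, and the differences between families were not tested. B-type ephrins had 18 higher and 48 lower calls among 432 sites, which is 4.17% and 11.1%, against 6.19% and 4.83% of all sites. X-linked Efnb1 supplied 12 of the 18 and 28 of the 48, and without it the family had 6 and 20 among 293 sites. Netrin receptors had 85 higher and 45 lower calls among 1303 sites, and Robos had 70 and 45 among 1125. EphA receptors had 95 higher and 72 lower calls among 1447 sites, and EphB receptors 82 and 59 among 1165. The shares called in both directions together were 9.98% for netrin receptors, 10.2% for Robos, 11.5% for EphA and 12.1% for EphB receptors, near the 11.0% of all sites. Slits had the largest share of called sites of the 8 role groups, 16.2% of 987 sites, with 82 higher and 78 lower. Slit3 supplied 100 of these 160 calls, with 21.2% of its sites called, against 14.1% in Slit1 and 8.41% in Slit2. A-type ephrins had 34 higher and 39 lower calls among 820 sites, and the netrins Ntn1 and Ntn4 had 25 and 22 among 547.

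Slit3, a secreted Robo ligand, held more called sites than any other member, with 44 higher and 56 lower of 471. Ephb1, a receptor for B-type ephrins, followed with 49 higher and 16 lower of 434, and Robo1, a Slit receptor, with 40 and 19 of 630. A large gene can rank high with an ordinary share, as 9.37% of Robo1 sites and 9.91% of Efna5 sites were called, below the 11.0% of all sites, against 21.2% in Slit3, 15.0% in Ephb1 and 28.8% in Efnb1. Efna5 had 26 higher and 27 lower, Ephb2 24 and 28, Robo2 22 and 20, Slit1 27 and 14, Efnb1 12 and 28, Epha4 19 and 17, and Dcc 24 and 12. These 10 genes leaned in different directions. In Unc5d, a repulsive netrin receptor, 17 sites were called higher and 3 lower, together 6.51% of its sites, and in Epha6 24 were called higher and 8 lower, while Efnb3 had 1 higher and 11 lower and Efna3 had 2 higher and 9 lower.

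The calls sat where methylation was intermediate, which the calling rule partly fixes. The level here is the mean over the same libraries that are compared, and a large difference cannot arise where that mean is near either end. Of the member sites whose mean level over the libraries was between 30% and 70%, 35.1% were called, against 38.7% of all such sites. Under 10% methylation 5 of 2635 member sites were called, against 0.480% of all such sites, and at 90% and over 0.970% were called, against 0.755%. By position, 13.2% of the 5271 intron sites were called, 8.60% of the 2070 exon sites and 5.15% of the 485 sites in the 1 kb before the TSS. Intron sites averaged 59.9% methylation in both libraries, exon sites 31.0% in E3 and 31.5% in CT, and upstream sites 7.14% in E3 and 8.38% in CT.

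The promoters of the guidance genes were nearly all unmethylated in both libraries. A promoter was taken as 1 kb on each side of the TSS and tested, with reads summed over its sites, if it had at least 5 sites. This left 29 of 36 promoters, while Epha6, Ephb6, Slit2, Robo2 and Unc5a had no measured site at the RefSeq gene start, Robo4 had 2 and Efnb3 had 4. Of the 29, 23 were under 10% in both libraries, against 60.8% of all promoters, and the medians were 2.50% in E3 and 2.15% in CT. No member promoter passed both a Benjamini-Hochberg adjusted p under 0.05 over all promoters and a difference of 10 points, where 4.68% of the 20131 promoters were called higher and 4.99% were called lower. At an unadjusted p under 0.05 without the size limit, 10 of the 29 differed, and at the adjusted threshold 9 did, 6 higher and 3 lower, against 30.3% of all promoters.

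**Figure D2:**
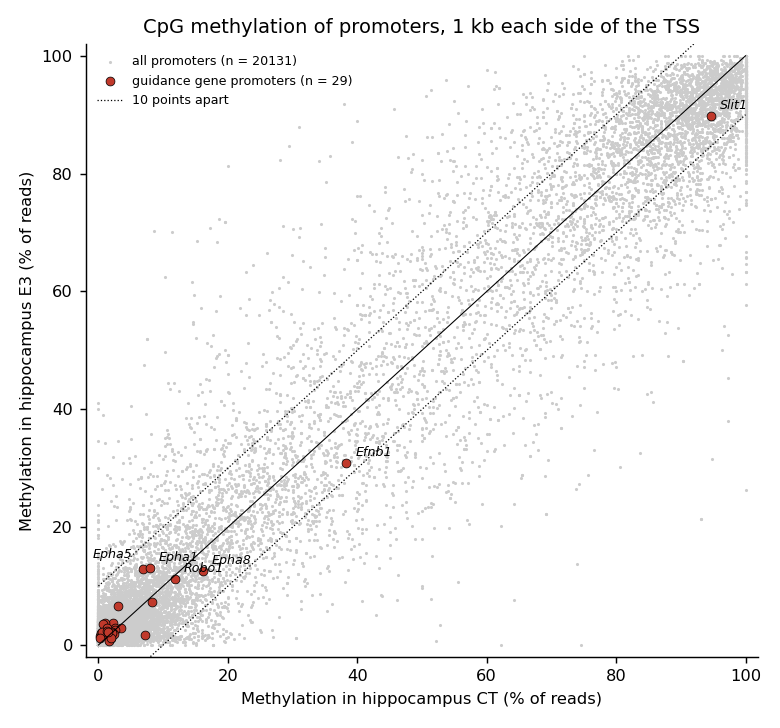
CpG methylation of each promoter in hippocampus CT (horizontal axis) and E3 (vertical axis), as a percentage of the reads summed over its sites, for all promoters (grey) and the guidance genes (red). Dotted lines mark 10 points, and all 29 guidance promoters lie between them, with Efnb1 at 30.8% and 38.3% and Slit1 at 89.8% and 94.7% standing away from the low corner.

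The 6 member promoters with the largest differences were small changes on low levels, apart from Efnb1 and Slit1. The promoter of Epha5, a receptor for A-type ephrins, had 13.0% methylation in E3 (917 reads, 95% Wilson interval 11.0 to 15.3) and 6.88% in CT (538 reads, 5.03 to 9.34), adjusted p = 0.00157 by Fisher's exact test. The promoter of Efna3, an A-type ephrin, had 1.62% in E3 (555 reads, 0.855 to 3.05) and 7.24% in CT (594 reads, 5.42 to 9.61), adjusted p = 3.7e-05 by Fisher's exact test. The Efna3 difference lay on the forward strand, at -17.4 points, while the reverse strand differed by 0.0566 points. The Epha5 difference was 10.3 points on the forward strand and 1.47 on the reverse strand, and 2.92 points over sites with at least 10 reads. Epha1 had 13.1% and 7.96% (adjusted p = 0.338), Efna2 had 6.63% and 2.98% (adjusted p = 0.206), and Slit1 had 89.8% and 94.7% (adjusted p = 0.427), all by Fisher's exact test. Reads count at every site they cover, so intervals and p-values take linked counts as separate and cover counting error only.

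Cytosines outside CpGs, which are largely unmethylated at promoters, moved in some of the same windows. In the Efna3 promoter the non-CpG level was 0.483% in E3 and 7.87% in CT, in the same direction as its CpG level. In the Epha5 promoter it was 2.85% in E3 and 12.0% in CT, opposite in direction to its CpG level. In the Epha8 promoter, with CpG levels of 12.5% and 16.1%, it was 0.897% and 7.34%. In the Efna2 promoter it was 8.95% in E3 and 0.218% in CT. The part of these levels in the CpG differences was not tested.

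For several genes the RefSeq gene start is not the start of the curated transcript, and another set of windows at the most upstream curated transcript was added after the data had been seen. It measured 34 of the 36 promoters. None was called, against 7.07% of all such promoters. Slit1, highly methylated at the gene start, had 2.95% in E3 and 0.871% in CT at the curated start, 3419 bases away. The direction of Epha5 turned, with 1.15% in E3 and 1.92% in CT at a curated start 436 bases away (adjusted p = 0.383, Fisher's exact test). Slit2 had 2.06% and 1.19%, Unc5a 1.14% and 3.28%, Epha6 1.18% and 1.45%, Ephb6 3.02% and 3.20%, and Robo1 1.01% and 1.33%. Efnb3, a B-type ephrin, had the widest gap there, 1.39% of 861 reads in E3 and 8.96% of 335 reads in CT, while non-CpG sites of that window had 0.675% and 0.615%. That window takes in the Efnb3 run at chr11:69560009-69560027, described below. The run had 0 methylated of 132 reads in E3 and 23 of 72 in CT, so window and run are not separate findings.

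Close to the TSS the member calls were mostly lower in E3, as they were across the genome. Within 1 kb of a member TSS 15 sites were called higher and 54 lower of 1564, which is 0.959% and 3.45%, against 1.76% and 3.70% of all sites within 1 kb of any TSS. Without Efnb1 these counts were 3 and 30 of 1447 sites, or 0.207% and 2.07%. The mean level over these 1447 sites was nevertheless 3.81% in E3 and 3.39% in CT. Lower calls near a TSS are therefore not a lower mean level. The median depth there was 24 reads in E3 and 9 in CT, and the part of depth in the direction of calls was not tested. In the rest of the gene spans 476 were called higher and 354 lower of 6262, which is 7.60% and 5.65%, against 7.88% and 5.54% of such sites in all genes. Away from Efnb1, then, 33 of the 859 called member sites lay near a TSS, against 35993 of the 245330 called sites over all genes and the sequence between them. The measured sites were also spread differently, with 1447 of 7687 member sites near a TSS and 660204 of all 2226271 sites. Member sites were counted from the gene's own start and all sites from any TSS, so the called counts are not a like comparison. The enzymes of the assay, MspI and TaqαI, cut at CCGG and TCGA. Of 36 RefSeq promoter windows of 300 bases that matched 31 member genes, 86.1% held CCGG and 16.7% TCGA, against 52.8% and 22.0% of all 32817 windows (both motifs read the same on either strand).

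Efnb1, a B-type ephrin on chromosome X, had the only tested member promoter between 20% and 80% methylation in both libraries. A copy of chromosome X is silenced in each cell of a female, and its CpG-rich promoters then carry methylation. The Efnb1 promoter had 30.8% methylation in E3 (3431 reads over 117 sites, interval 29.3 to 32.4) and 38.3% in CT (1115 reads, 35.5 to 41.2), adjusted p = 6.1e-05 by Fisher's exact test. The 678 promoters measured on chromosome X had medians of 34.0% in E3 and 40.7% in CT, and 33.0% of them were called, while 15.5% of the CpG sites of chromosome X were called. The 19453 other promoters had medians of 3.62% and 3.58%. The Efnb1 promoter was thus near the X-linked median in both libraries.

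Below that average, the Efnb1 promoter alternated between blocks of opposite direction. With both strands of a CpG summed, 81 CpGs were measured there, 15 called higher in E3, 21 called lower and 45 not called. In E3, 76 of the 81 lay between 10% and 60%. In CT, 24 were at 0% and 7 at 100%, and 29 rested on 6 or fewer reads. The median depth was 44 reads in E3 and 10 in CT.

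Runs mark these blocks. A run is at least 3 CpGs called in 1 direction, each at most 200 bases from the next, with no CpG called the other way between them, while uncalled CpGs may lie between. The first, chrX:99135833-99135969, which begins 228 bases before the TSS, had 29.6% methylation in E3 (405 reads) and 80.8% in CT (177 reads), with 7 of 8 measured CpGs called lower. Both strands gave this direction, with 31.8% and 97.9% on the forward strand and 24.8% and 60.5% on the reverse strand. In it, the CpG 152 bases before the TSS had 25.7% of 70 reads in E3 and 89.5% of 38 in CT (Fisher's exact p = 8.2e-11). The CpG 135 bases before the TSS had 31.9% of 69 and 89.5% of 38 (Fisher's exact p = 4.9e-09), and both were lower on each strand. From 51 bases after the TSS, in the first exon, chrX:99136112-99136199 had 40.8% in E3 (262 reads) and 0% in CT (94 reads). Farther on, chrX:99136411-99136472 had 37.3% in E3 (233 reads) and 0% in CT (40 reads, 8 at each CpG). The 2 blocks after that were lower again, 17.5% and 100% at chrX:99136597-99136615 (40 and 24 reads) and 17.2% and 52.1% at chrX:99136624-99136717 (319 and 146 reads). The E3 level varied far less between blocks, from 17.2% to 40.8%, than the CT level, from 0% to 100%.

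**Figure D3:**
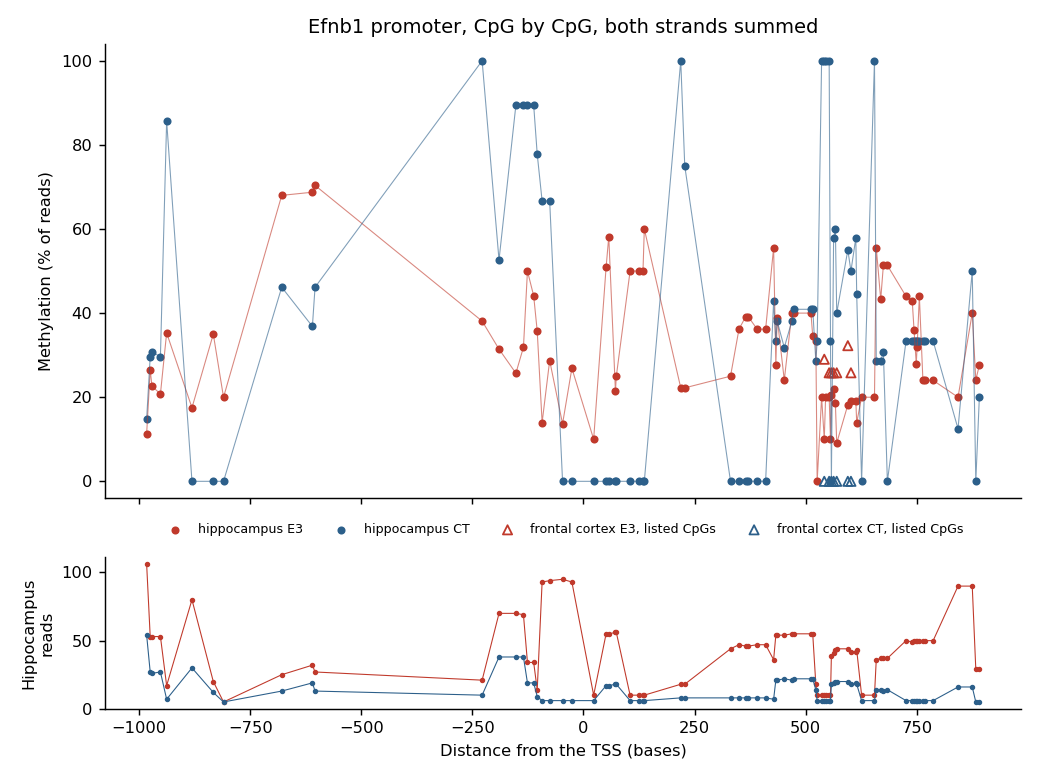
Methylation of each CpG of the Efnb1 promoter by distance from the TSS in hippocampus E3 and CT (dots, top), the frontal cortex CpGs listed as different (triangles), and the hippocampus reads behind each CpG (bottom). The CT line moves between 0% and 100%, the E3 line stays mostly between 10% and 60%, and the triangles for frontal cortex sit at 25.8% to 32.3% in E3 and 0% in CT.

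A pair of Efnb1 stretches is shown, the first for its block of lower CpGs before the TSS and the other because the tissues and the strands part there. They are the forward strand of GRCm38.p6, which is also the strand of the gene. In the first, chrX:99135833-99135969, capitals mark the 7 CpGs called lower in the hippocampus. In the other, chrX:99136602-99136717 in the first exon, capitals mark the 7 CpGs that the frontal cortex list gives as higher in E3.
Efnb1 upstream run: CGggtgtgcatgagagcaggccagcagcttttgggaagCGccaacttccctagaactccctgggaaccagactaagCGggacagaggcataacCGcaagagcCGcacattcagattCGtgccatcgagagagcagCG
Efnb1 first exon block: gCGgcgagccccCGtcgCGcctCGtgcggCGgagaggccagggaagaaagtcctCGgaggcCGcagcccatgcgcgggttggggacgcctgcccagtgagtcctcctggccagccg

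In the frontal cortex all 7 listed Efnb1 CpGs were higher in E3, at 25.8% to 32.3%, and 0% in CT. They lie 542 to 602 bases after the TSS, in a CpG island, and the read depth behind them is unknown. In the hippocampus the same 7 CpGs had 9.09% to 22.0% in E3. At 6 of them CT was higher, at 40.0% to 100%, and at the CpG 558 bases after the TSS CT was at 0% of 18 reads against 20.5% of 39 in E3. The directions in the 2 tissues were therefore opposite at 6 CpGs and the same at 1. The strands divided the hippocampus values further. At the CpG 563 bases after the TSS the forward strand had 16.7% of 24 reads in E3 and 0% of 8 in CT, while the reverse strand had 29.4% of 17 and 100% of 11. At 595 bases the forward strand had 16.7% of 24 and 0% of 8, and the reverse strand 4 of 20 and 11 of 12. Over the whole block from 563 bases on, the forward strand was higher in E3 (13.1% and 0%) and the reverse strand lower (21.9% and 83.5%).

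Each of the 8 role groups held at least 1 run. The 36 genes held 52 runs, 30 higher and 22 lower in E3, in 23 genes. They took in 192 of the 6027 member CpGs, or 3.19%, against 2.70% of the 1722586 CpGs measured. Of the member CpGs 12.6% were called with strands summed, against 12.1% of all. Outside Efnb1, 163 CpGs lay in 47 runs.

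**Figure D4:**
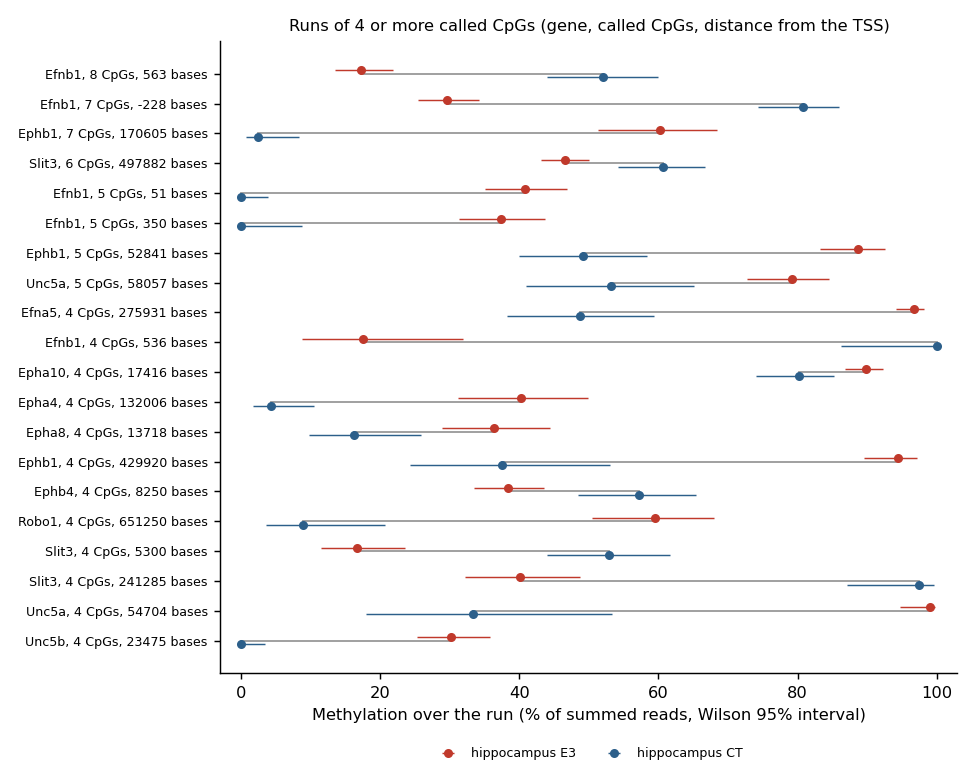
Methylation over the 20 member runs of 4 or more called CpGs, in hippocampus E3 (red) and CT (blue), as a percentage of the reads summed over the run with Wilson 95% intervals that cover counting error only. Each row names the gene, the called CpGs and the distance of the run from the TSS. The E3 and CT intervals lie apart in all 20 runs, and CT is at 0% in Efnb1 and Unc5b runs and at 2.38% in an Ephb1 run. Runs were built from CpGs already called different on these reads, so the separation follows from that selection.

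Ephb1 had the run with the most called CpGs outside Efnb1. In intron sequence 170605 bases after the TSS, at chr9:102183848-102184089, all 7 measured CpGs were called higher, with 60.2% in E3 (123 reads) and 2.38% in CT (84 reads, 6 to 13 at a CpG). The forward strand had 82.9% and 2.38%, and the reverse strand 51.1% and 2.38%. Another run, of 5 called CpGs, chr9:102301799-102301853, had 88.7% (177 reads) and 49.1% (110 reads). A run of 4, chr9:101924549-101924774, had 94.5% (146 reads) and 37.5% (40 reads), and 1 of its CpGs was methylated in 47 of 47 reads in E3 and 0 of 9 in CT (Fisher's exact p = 1.3e-10). Another intron CpG, 104208 bases after the TSS, had 75.6% of 82 reads and 11.8% of 34 (Fisher's exact p = 1.8e-10), higher on both strands. In the other direction, the CpG 388668 bases after the TSS had 0 of 25 methylated reads in E3 and 6 of 6 in CT (Fisher's exact p = 1.4e-06). All 5 Ephb1 runs were higher in E3. The promoter of Ephb1 had 2.17% and 1.40% and no called site.

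The Ephb1 intron run is printed because it holds the most called CpGs of any member run outside chromosome X. The sequence is the forward strand of GRCm38.p6, opposite to the gene, and capitals mark its 7 called CpGs. Of its 12 CpGs, those in lower case were not measured, and it holds neither CCGG nor TCGA.
Ephb1 intron run: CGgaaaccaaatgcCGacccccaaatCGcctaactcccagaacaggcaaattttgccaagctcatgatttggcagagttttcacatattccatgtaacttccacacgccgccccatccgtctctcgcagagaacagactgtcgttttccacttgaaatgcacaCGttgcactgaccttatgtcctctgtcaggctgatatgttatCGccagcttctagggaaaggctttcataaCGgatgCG

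Among the other Eph receptors the runs were shorter. Epha4, which binds ephrins of both types, had 4 CpGs at chr1:77383019-77383102 with 40.2% in E3 (102 reads) and 4.26% in CT (94 reads), higher on both strands. Epha8 had 36.3% and 16.3% over 4 called of 6 measured CpGs at chr4:136943024-136943142, and Epha10 89.9% and 80.2% over 4 of 7 at chr4:124898946-124899163. Ephb4, best known as the venous receptor for ephrin-B2, had a lower run of 4 of 7 CpGs, with 38.4% and 57.1%. Ephb2 had 2 lower runs, of which chr4:136834103-136834137, 2190 bases after the TSS, had 16.7% of 186 reads in E3 and 62.7% of 75 in CT and was lower on both strands. Its intron CpG 10996 bases after the TSS had 14.3% of 98 reads and 63.2% of 38 (Fisher's exact p = 4.7e-08). Epha6 had a CpG 901534 bases after the TSS with 60.0% of 60 reads in E3 and 0 of 24 in CT (Fisher's exact p = 5.7e-08), read on the forward strand alone. The Eph receptors thus held runs in both directions.

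Among the ephrins other than Efnb1, Efna5 had 7 runs, 4 of them lower. The one with the most called CpGs, chr17:62605275-62605387 in an exon 275931 bases after the TSS, had 96.8% in E3 (310 reads) and 48.8% in CT (82 reads). At its CpG with the smallest p, E3 was methylated in 124 of 124 reads and CT in 16 of 30 (Fisher's exact p = 5.5e-12). The strands of CT disagreed there, with 8 of 22 on the forward strand and 8 of 8 on the reverse strand, while E3 was at 100% on both. A second CpG, 226564 bases after the TSS, showed the same division, with 96.2% of 79 reads in E3 and 44.8% of 29 in CT (Fisher's exact p = 8.4e-09), where CT had 9 of 9 on the forward strand and 4 of 20 on the reverse strand. The CpG 221204 bases after the TSS was lower, 27.2% of 173 reads in E3 and 81.3% of 32 in CT (Fisher's exact p = 1.1e-08), on both strands.

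The Efna5 exon run is given on the forward strand, opposite to the gene, with its 4 called CpGs in capitals. It is an example of a run in which the CT strands differ. The forward strand, read at all 4, had 94.6% in E3 and 36.4% in CT. The reverse strand, read at 2, had 100% in both libraries, so the difference lay on the forward strand.
Efna5 exon run: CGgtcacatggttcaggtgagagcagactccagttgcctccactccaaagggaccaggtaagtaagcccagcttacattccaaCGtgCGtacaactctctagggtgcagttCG

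Efnb3, whose product also serves as a receptor in reverse signalling, had 2 runs, both lower. At chr11:69560009-69560027, in an exon 1124 bases after the TSS, none of 132 reads was methylated in E3 against 31.9% of 72 in CT, on both strands. The curated start lies 913 bases in, so the reads of this run are part of the curated window given above. At chr11:69557470-69557597 it had 29.0% of 138 reads and 70.7% of 41. In all, 11 of its 57 sites were called lower, and the mean over its sites was 16.0% in E3 and 26.1% in CT. Over the Efnb3 span the non-CpG level was 2.20% in E3 and 4.96% in CT, and the part of that difference was not tested. Efnb2 had 5 higher and 9 lower calls among 236 sites and no run.

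The Slit genes held runs in both directions. Slit3 had 3 runs, all lower. The longest, chr11:35619338-35619607 in an intron 497882 bases after the TSS, had 6 of 10 measured CpGs called lower, with 46.6% in E3 (805 reads) and 60.6% in CT (226 reads). The strands disagreed over it, with 47.3% and 42.7% on the forward strand and 45.9% and 85.3% on the reverse strand. Within it, the CpG 497931 bases after the TSS had 0 of 67 methylated reads in E3 and 17 of 30 in CT (Fisher's exact p = 3.2e-11), lower on both strands. At chr11:35362741-35362775, 4 CpGs had 40.2% of 132 reads in E3 and 97.5% of 40 in CT, on the forward strand alone. In an intron 5300 bases after the TSS, chr11:35126756-35126860 had 16.7% of 144 and 52.9% of 119. A CpG 545096 bases after the TSS had 0 of 197 reads in E3 and 10 of 60 in CT (Fisher's exact p = 2.6e-07), all 10 from the reverse strand. The CpG 486895 bases after the TSS was higher, with 126 of 128 and 8 of 18 (Fisher's exact p = 2.9e-09), and its CT strands had 2 of 12 and 6 of 6. Slit1 had 3 runs, all higher, with 63.2% and 15.1% in the most different. Slit2 had 1 run, with 78.2% and 100%, and an exon CpG 315250 bases after the TSS with 50 of 50 methylated reads in E3 and 8 of 19 in CT (Fisher's exact p = 4.1e-08).

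The Slit3 intron run is shown as a stretch where the direction rested on 1 strand. It is the forward strand of GRCm38.p6, which is the strand of the gene, with the 6 called CpGs in capitals among 10 CpGs and 1 TCGA.
Slit3 intron run: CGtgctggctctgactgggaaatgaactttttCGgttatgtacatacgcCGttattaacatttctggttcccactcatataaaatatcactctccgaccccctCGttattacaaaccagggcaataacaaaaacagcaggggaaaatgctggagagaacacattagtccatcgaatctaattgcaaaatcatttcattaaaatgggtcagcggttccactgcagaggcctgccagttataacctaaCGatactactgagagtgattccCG

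Among the Robos, the Slit receptors, Robo1 had 1 run, of 4 CpGs at chr16:72678768-72678856, 651250 bases after the gene start and beyond the curated start that lies 635631 bases in, with 59.5% of 116 reads in E3 and 8.89% of 45 in CT, higher on both strands. Robo3, known for regulating midline crossing, had 1 run with 29.3% and 20.3%. Robo2 had 22 higher and 20 lower calls among 384 sites with no run. Robo4, an endothelial member, had 11 measured sites, of which 1 was called.

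The netrin receptors held the member CpG with the smallest p. In Dcc, on chromosome 18, the intron CpG 483104 bases after the TSS had 167 of 179 methylated reads in E3 (93.3%, interval 88.6 to 96.1) and 23 of 72 in CT (31.9%, 22.3 to 43.4). The forward strand had 91.6% and 36.7% and the reverse strand 96.7% and 21.7%, and its p of 3.8e-23 was 1.1e-18 after Benjamini-Hochberg adjustment over all CpGs. It ended a run of 3 CpGs with 94.3% of 351 reads and 52.6% of 135. Unc5a had 3 runs in exons, chr13:55003208-55003396 with 79.2% and 53.2%, chr13:54999855-54999904 with 99.0% of 104 reads and 33.3% of 24, and a lower run, chr13:55004950-55005064, with 42.8% of 145 and 80.5% of 159. The first CpG of that lower run had 15 of 43 and 33 of 37 (Fisher's exact p = 7.4e-07), lower on both strands. Unc5b had 30.2% of 291 reads in E3 and 0% of 108 in CT over 6 CpGs at chr10:60808053-60808107, read on the forward strand alone. Unc5d had 1 run, with 91.3% of 183 reads and 55.7% of 61. Ntn1, the netrin best known as a midline attractant, had 1 lower run with 21.1% of 166 reads and 58.3% of 84. Ntn4 had 7 higher and 7 lower calls and no run.

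In the frontal cortex, 13 of the 36 genes had a listed CpG. Of the 24 CpGs, 12 were higher and 12 lower in E3. Over all listed CpGs 36.3% were higher. The table lists only CpGs that passed the thresholds of the study, with no reads, so levels carry no interval and absence from the list cannot be read as no difference. Without Efnb1, 5 were higher and 12 lower. In 12 of the 24 a library was at 0%, against 41.2% of all listed CpGs. The 7 neighbouring Efnb1 CpGs, each at 0% in CT, are among these 12.

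**Figure D5:**
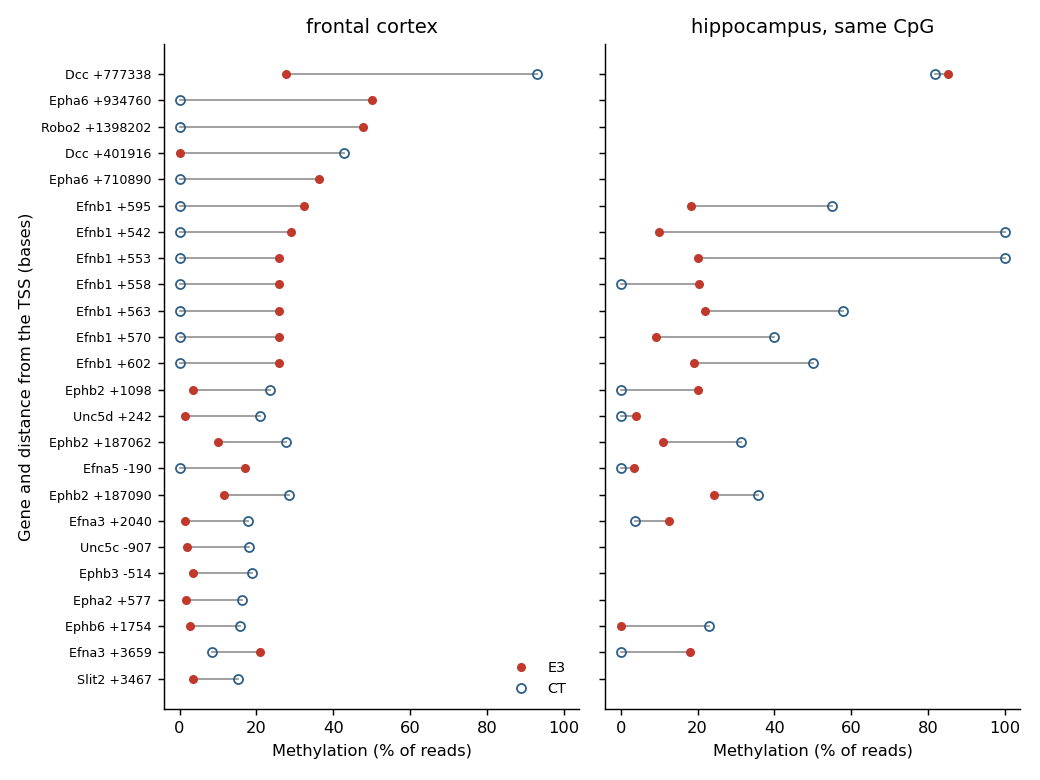
The 24 frontal cortex CpGs listed in guidance genes, in order of the size of the difference, with methylation in frontal cortex E3 and CT (left) and at the same CpG in the hippocampus, strands summed, where measured (right). The 7 Efnb1 CpGs are higher in E3 in the frontal cortex and 6 of them lower in E3 in the hippocampus, and 8 CpGs have no hippocampus value.

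The largest difference was in Dcc, at an intron CpG 777338 bases after the TSS, with 27.6% in E3 and 93.1% in CT. In the hippocampus this CpG had 85.2% of 27 reads and 81.8% of 11 and was not called. A second Dcc intron CpG had 0% and 42.9%. Epha6 had 2 intron CpGs at 50.0% and 36.4% in E3 and 0% in CT, and Robo2 had 1 at 47.6% and 0%. These Epha6 and Robo2 CpGs and that second Dcc CpG were not measured in the hippocampus.

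Promoter CpGs here are those that the deposited list assigns to a promoter. By this rule the Ephb2 CpG at 1098 and the Ephb6 CpG at 1754 bases after the TSS are included, outside the 1 kb window used above. Apart from Efnb1 and Efna5, the listed promoter CpGs of guidance genes were lower in E3, and in E3 none exceeded 3.57%. Ephb2 had 3.57% in E3 and 23.6% in CT, Unc5d 1.30% and 21.1%, Unc5c 1.89% and 18.2%, Ephb3 3.45% and 18.8%, Epha2 1.72% and 16.3%, and Ephb6 2.61% and 15.8%. Efna5 was the other way, with 17.1% in E3 and 0% in CT at 190 bases before the TSS. Each gene had a single such promoter CpG. In the gene bodies, a pair of neighbouring Ephb2 exon CpGs had 10.1% and 27.6%, and 11.5% and 28.6%, while Efna3 had an intron CpG at 1.39% and 17.9% and another at 20.9% and 8.33%, and Slit2 an exon CpG at 3.61% and 15.3%.

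Of the 24 CpGs, 16 were also measured in the hippocampus. There 2 were called in the same direction, 6 in the opposite direction and 8 were not called, when 12.1% of all CpGs were called. All 6 opposite CpGs and 1 of the 2 shared ones were in Efnb1. These 7 Efnb1 CpGs lie 542 to 602 bases after the TSS, where neighbouring CpGs can share reads. They are thus not 7 separate observations to set beside 12.1%. Outside Efnb1, 1 CpG was called and 8 were not. The other shared CpG was in Ephb6, an Eph receptor that lacks kinase activity, 1754 bases after the gene start and near its curated start, which lies 1677 bases in. It had 2.61% in E3 and 15.8% in CT in the frontal cortex, and 0 of 21 and 3 of 13 reads in the hippocampus (Fisher's exact p = 0.0478). The 8 CpGs that were not called lay in the same direction as in the frontal cortex at 4 and in the opposite direction at 4. Among those in the same direction were Efna3 at 3659 bases after the TSS, with 7 of 39 and 0 of 21 reads (Fisher's exact p = 0.0846), and the Ephb2 exon pair, with 4 of 36 and 5 of 16 (Fisher's exact p = 0.113) and 8 of 33 and 5 of 14 (Fisher's exact p = 0.486). The opposite ones were in Dcc, Ephb2, Unc5d and Efna3.

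Other genes of these pathways served as a comparison, 36 co-receptors, related ligands and signalling partners such as Neo1, Dscam, Srgap1 and Trio. Of their 7893 sites 6.59% were called higher and 4.98% lower, beside 6.27% and 5.21% for the members. Of their 28 measured promoters none was called. The guidance families and their partners gave shares of called sites that lay close to each other and to the background.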

How the data were processed

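CpG methylation was measured by Methyl-MiniSeq, in which DNA cut with TaqαI and MspI is bisulfite converted and sequenced, in 4 libraries, 1 per tissue and condition. The methods name TrimGalore, FastQC, Bismark and MethylDackel and mouse build mm10. For the hippocampus the authors deposited, for every cytosine, the count of reads and the methylated fraction in each library, rounded to 2 decimals. For the frontal cortex the authors deposited the methylated fraction only at sites that passed their thresholds, so its depth is unknown. The deposited p-values, adjusted p-values, differences and classes of the authors' own comparisons were not used.

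Methylated reads were rebuilt as fraction times reads and rounded, which can be off by a read at deep sites. Sites with at least 5 reads in both libraries were tested by 2-sided Fisher's exact test. A site was called at a difference of at least 10 points and unadjusted p under 0.05, and a promoter (1 kb each side of the TSS, at least 5 sites) at 10 points and Benjamini-Hochberg adjusted p under 0.05 over all promoters. Runs were at least 3 CpGs called in 1 direction, strands summed, with neighbouring called CpGs within 200 bases and uncalled CpGs allowed between. Reads carry no molecular identifiers, so Wilson 95% intervals cover counting error only. Gene spans and sequences are from RefSeq (GRCm38.p6). The scripts, in Python 3.11.15 with scipy 1.17.1, pandas 2.3.3 and numpy 2.4.6, were tested on simulated data.

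The members and lists were chosen with earlier results of these data known. Values were given for the 6 member promoters with the largest differences, the 10 members with the most called sites, the 8 CpGs with the smallest p in each direction, runs of at least 5 CpGs, and all 24 frontal cortex CpGs ordered by size of difference, in place of a planned order by deposited p. Other regions and genes named were chosen after their values were seen. Curated starts and the counts without Efnb1 were also added after seeing the data. The alternatives tried were other coverage minimums, differences, promoter windows, run rules, strands taken alone and reads halved.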

Additional observations from a re-analysis of the deposited data

Results flagged for a closer look

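At 6 Efnb1 CpGs the libraries of the 2 tissues differed in opposite directions, with E3 higher in the frontal cortex and lower in the hippocampus. The hippocampus differences, E3 minus CT in percentage points, were -90.0 at 542 bases after the TSS, -80.0 at 553, -35.9 at 563, -30.9 at 570, -36.8 at 595 and -31.0 at 602. These values sum the strands, and the lower direction came from the reverse strand. At 563, 595 and 602 the forward strand had 16.7% in E3 and 0% in CT, the direction of the frontal cortex. At 570 the forward strand was at 0% in both libraries. At 542 and 553 only the reverse strand was read, with 6 reads in CT. The difference between the tissues was not tested, and each tissue has 1 library per condition.

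Non-CpG cytosines, outside the main measurement, also gave calls in the guidance genes. In the hippocampus 62 CHG sites were called higher in E3 and 546 lower, which is 0.383% and 3.38% of member CHG sites. Over all CHG sites the shares were 0.254% and 3.17%. At CHH, 230 were called higher and 1738 lower, or 0.492% and 3.72%, against 0.319% and 3.36% of all CHH sites. The lean to lower calls was thus shared with all measured non-CpG sites. In the frontal cortex 3 CHG and 13 CHH sites were listed higher and 15 and 36 lower. Over all listed sites, 20.5% of CHG and 24.7% of CHH sites were higher. Over all 62891 non-CpG sites of the members the level was 2.61% in E3 and 2.71% in CT. Over the gene spans, 19 members had a lower non-CpG level in E3 and 17 a higher one. Efna2, Efna4 and Robo4 were picked for a higher level in E3. It was 4.59% in E3 and 1.29% in CT for Efna2, 3.74% and 1.07% for Efna4, and 4.87% and 0.571% for Robo4. Other members went the other way, such as Efna3 with 0.800% in E3 and 3.65% in CT.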

How the results depend on the processing

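With 1 library per group, no replicate could be left out. No paired analysis was possible because each group holds 1 library. Called member sites numbered 280 higher and 262 lower of 3643 at a minimum of 10 reads and 70 and 78 of 711 at 20 reads, against 491 and 408 of 7826. Fewer sites were tested there, so the lower counts are not a lower share of tested sites. With all 7826 sites kept, they numbered 156 and 114 with Benjamini-Hochberg adjustment over all sites, and 166 and 141 with reads halved. Shares over all measured sites are not given for these settings. The order of the directions thus turned at 20 reads, where 711 sites were left. They stayed within 1.5 times under the other alternatives, at 461 and 364 for a difference of 25 points and 409 and 348 with strands summed. Promoters called lower numbered 1 rather than 0 under 4 settings. It was Efnb1 with a window narrowed on both sides (32.4% and 42.9%), with the 1 kb before the TSS alone (27.6% and 47.7%) and at 10 reads (29.3% and 43.4%), and Efna3 by the mean over sites (-10.1 points). Runs numbered 34 at 10 reads and 8 at 5 or more CpGs. In the frontal cortex, 10 CpGs were higher and 2 lower at 25 points, the 7 Efnb1 CpGs among the 10. By the promoter column 8 were higher and 6 lower, and without Efnb1 5 were higher and 12 lower. CpGs called alike in both tissues numbered 1 without Efnb1 and 0 with each strand as its own site. Of 52 recomputed differences of the 14 named promoters and runs, 41 kept direction and side of the threshold, 6 passed it newly and 5 turned, all with 1 strand alone. These were the Efna3 promoter on the reverse strand (0.0566 points), the Efna2 promoter on the reverse strand (-3.05), the Slit1 promoter on the forward strand (0.124), the Efnb1 run from 563 bases (13.1) and the Slit3 run (4.55), both on the forward strand. The cause was not tested. At 10 reads the Ephb1 run at 170605 bases and the Efnb1 run at 350 bases had no site left. Settings with the deposited p or adjusted p were not run.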
